A study of Mus musculus with 8 samples.

Results

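Leukotrienes and prostaglandins are lipid mediators made from arachidonic acid, and 10 genes that carry the main steps of their synthesis and reception were examined in mouse acute myeloid leukemia (AML). The genes were given by name. They were Pla2g4a, Alox5, Alox5ap, Lta4h, Ltc4s, Ptgs1, Ptgs2, Cysltr1, Ltb4r1 and Ptger4. Of these, 9 were found in a table of 12823 genes, and each of the 9 passed the filter on low counts that kept 12494 genes. Ltc4s was not analysed here. Cysltr1 was selected on its measured values, which were much lower in aggressive AML than in new AML, so they are given as a description with no test. The other 8 genes belong to the same pathway and were tested in the model fitted across all 12494 genes.

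Both groups were leukemia cells of mouse bone marrow that express MLL-AF9, a fusion oncoprotein, together with green fluorescent protein (GFP). For new AML, bone marrow progenitors were transduced with MLL-AF9 and GFP and given to sublethally irradiated mice, and GFP+ cells were collected from the leukemias that arose. For aggressive AML, cells of that leukemia are described as passed through 5 serial transplantations, in C57BL/6 mice that were not irradiated. RNA came from a fixed number of GFP+ cells, with 4 libraries in each group, and the mice used for RNA-seq are described as male. The label of each library calls it a biological replicate, but neither separate leukemias nor separate mice are stated, so p-values measure the spread between these libraries.

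Total counts were 7805544 to 9697777 per library, and levels are given in CPM, the count of a gene over the scaled total of its library. A single count corresponded to 0.103 to 0.130 CPM. At this depth a gene of 1 CPM rested on fewer than 10 counts. The groups also differed in their Y chromosome transcripts. The 4 Y-linked genes Ddx3y, Eif2s3y, Kdm5d and Uty summed to 2315 to 2574 counts in each new AML library and to 0 in each aggressive AML library. This difference, the serial transplantation and any batch that follows the group cannot be told apart. The origin of aggressive AML from the same leukemia is taken from the description and was not tested.

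Eicosanoid synthesis starts when a phospholipase A2 frees arachidonic acid from membranes. The 5-lipoxygenase enzyme, held at the membrane by its activating protein, turns it into an unstable leukotriene that is either hydrolysed to leukotriene B, a neutrophil attractant, or joined to glutathione to give the cysteinyl leukotrienes. Cyclooxygenases instead start the prostaglandins, among them prostaglandin E, and all these mediators act on G protein-coupled receptors of myeloid and other cells.

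Outside Cysltr1, 2 of 8 genes passed the test, 1 higher and 1 lower in aggressive AML. Alox5, the gene for 5-lipoxygenase, rose from 11.1 to 16.6 CPM, and Ptger4, which encodes the prostaglandin E receptor EP4, fell from 4.90 to 2.48 CPM. That is 25% of the 8 genes, against 18.4% of all genes tested (8.15% higher and 10.2% lower in aggressive AML). New and aggressive AML libraries were fully apart in the same 2 of 8 genes, against 21.8% of all genes tested. With so few genes, these shares do not set the pathway apart from the background.

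The promoters of Alox5 and Ptger4 are shown because these genes moved in opposite directions. The 250 bases before the annotated start were taken from a set of RefSeq promoter sequences (GRCm38.p6, the same build as mm10). This set held promoters of 7 of the 10 genes. Both sequences are written from 5′ to 3′ on the minus strand, on which both genes lie. Capitals mark GGGCGG, the core of the GC box, on either strand.
Alox5 promoter, chr6:116461179-116461428: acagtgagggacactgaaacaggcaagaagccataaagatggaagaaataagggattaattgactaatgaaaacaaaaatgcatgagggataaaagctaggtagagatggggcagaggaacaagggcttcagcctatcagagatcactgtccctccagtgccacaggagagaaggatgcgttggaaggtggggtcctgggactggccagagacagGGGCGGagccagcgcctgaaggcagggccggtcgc
Ptger4 promoter, chr15:5244188-5244437: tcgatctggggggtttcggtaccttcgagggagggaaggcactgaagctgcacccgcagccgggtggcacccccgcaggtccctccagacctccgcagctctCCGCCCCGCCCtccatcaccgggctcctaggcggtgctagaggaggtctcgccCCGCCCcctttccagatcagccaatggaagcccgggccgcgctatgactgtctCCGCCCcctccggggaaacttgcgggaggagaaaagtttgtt
The Alox5 window held 1 such match, which began at position -35 from the start, and the Ptger4 window held 4, at -148, -143, -95 and -42, of which the first 2 share 1 base. Their GC content was 52.8% and 66.8%, beside a median of 52.4% over all 32851 promoters. GGGCGG occurred in 32.7% of these promoters. Of the other motifs searched on both strands, TATAAA occurred in 12.4% of all promoters, GAGGAAG in 10.6%, CACGTG in 6.02% and TGACGTCA in 1.55%, and none of these strings was in the Alox5 or Ptger4 window. The matches are strings of letters and do not show that a factor binds.

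Pla2g4a (chromosome 1, 149829618 to 149961290, GRCm38.p6) encodes the cytosolic phospholipase A2 that releases arachidonic acid. It measured 35.4, 44.3, 54.0 and 45.7 CPM in new AML and 42.0, 49.0, 37.1 and 46.9 CPM in aggressive AML. The groups overlapped throughout. The log2 fold change, aggressive over new AML, was -0.03 (SE 0.13, adjusted p = 0.879), and its sign turned without new AML replicate 3 (0.068) or without aggressive AML replicate 3 (0.040).

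**Figure D1:**
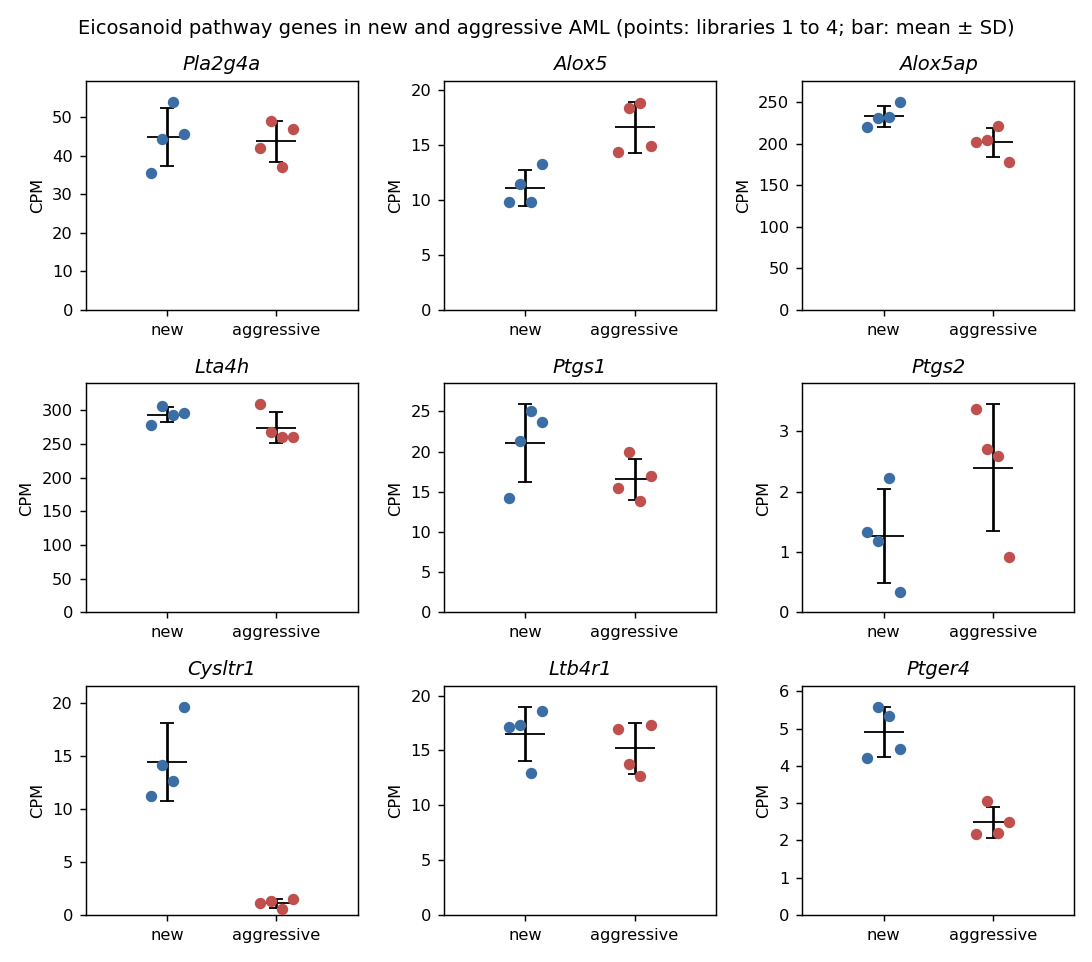
CPM of the 9 genes in each library, with 1 panel per gene and a vertical axis that starts at 0; points are the 4 libraries of new AML (blue) and aggressive AML (red), and bars are the mean ± SD. The groups are apart in Alox5, Cysltr1 and Ptger4 and overlap in the other 6 genes.

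Alox5 (chromosome 6, 116410071 to 116461178) catalyses the first committed step of leukotriene synthesis. It measured 9.85, 11.4, 9.81 and 13.3 CPM in new AML and 14.3, 18.4, 18.8 and 14.9 CPM in aggressive AML. Every aggressive AML library lay above every new AML library. The means were 11.1 ± 1.63 and 16.6 ± 2.31 CPM (SD, n = 4), and the log2 fold change was 0.58 with an SE of 0.16 (adjusted p = 0.0178). The call was lost without new AML replicate 1 (adjusted p = 0.0553) and without aggressive AML replicate 2 (adjusted p = 0.0574), with adjusted p from 0.00675 to 0.0574 over all alternatives. The span of Alox5 includes Gm38880, and the strand setting of the counting was not stated.

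Alox5ap (chromosome 5, 149265004 to 149288153), which encodes the 5-lipoxygenase activating protein FLAP, was not called. It measured 220.0, 230.6, 231.9 and 250.5 CPM in new AML and 201.9, 204.8, 221.1 and 178.6 CPM in aggressive AML. The groups met only at their edges, where aggressive AML replicate 3 lay just above new AML replicate 1. Its log2 fold change was -0.21 (SE 0.08, adjusted p = 0.0746), and without aggressive AML replicate 3 it passed the threshold (adjusted p = 0.0336).

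Lta4h (chromosome 10, 93453396 to 93484896) encodes the hydrolase that makes leukotriene B. It measured 278.2, 306.7, 293.4 and 295.8 CPM in new AML and 308.7, 267.6, 260.1 and 260.002 CPM in aggressive AML. Aggressive AML replicate 1 was the highest of all 8 libraries, while the other 3 of its group were the lowest. The log2 fold change was -0.10 (SE 0.07, adjusted p = 0.385).

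Alox5 and its partner Alox5ap had log2 fold changes of opposite sign, of which only that of Alox5 was called. Per kb of the longest transcript, the level of Alox5ap was 54.0 to 67.5 times that of Alox5 in the new AML libraries and 31.9 to 40.3 times in the aggressive AML libraries. For Lta4h over Alox5 the ratio was 24.7 to 33.2 in new AML and 15.3 to 23.9 in aggressive AML. Neither ratio overlapped between the groups. Both contain Alox5 and are given without a test.

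Cysltr1 (chromosome X, 106576509 to 106603679) encodes CysLT1, the receptor of the cysteinyl leukotrienes. The new AML libraries held 109, 119, 113 and 176 counts, or 11.2, 14.1, 12.6 and 19.6 CPM. The aggressive AML libraries held 9, 11, 4 and 13 counts, or 1.08, 1.30, 0.518 and 1.48 CPM. The lowest new AML library was thus well above the highest aggressive AML library, and no library of either group was at 0. The means were 14.4 ± 3.69 and 1.09 ± 0.417 CPM (SD, n = 4). The fitted level was 12.8-fold lower in aggressive AML, or -3.68 on the log2 scale with an SE of 0.28. This is the difference for which the gene was picked. With any 1 library left out it was -3.85 to -3.46. Only 37 counts stand behind the aggressive AML values, and the span of Cysltr1 includes Gm24622 and Gm5127.

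Ltb4r1 (chromosome 14, 55765962 to 55768492), which encodes BLT1, the high-affinity receptor of leukotriene B, did not share this pattern. It measured 17.1, 17.4, 12.9 and 18.6 CPM in new AML and 17.0, 13.8, 12.7 and 17.3 CPM in aggressive AML. The groups overlapped over nearly their whole range. The log2 fold change was -0.12 (SE 0.15, adjusted p = 0.636). Per kb of the longest transcript, the level of Ltb4r1 was 3.50 to 5.65 times that of Cysltr1 in new AML and 39.2 to 90.4 times in aggressive AML. With the mean length of all transcripts it was 2.11 to 3.41 and 23.7 to 54.5 times. Since Cysltr1 was picked for its fall, this ratio is given as a description.

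Ptgs1 (chromosome 2, 36216742 to 36258593) encodes cyclooxygenase 1, the constitutive form of the enzyme. It measured 14.3, 21.3, 25.1 and 23.6 CPM in new AML and 15.4, 19.9, 13.9 and 17.0 CPM in aggressive AML. New AML replicate 1 lay within the range of aggressive AML, whereas the other 3 libraries of its group lay above that range. The log2 fold change was -0.35 (SE 0.17, adjusted p = 0.181), and without new AML replicate 1 it was -0.50 with an adjusted p of 0.0404.

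Ptgs2 (chromosome 1, 150100031 to 150108234) encodes cyclooxygenase 2, the inducible form. Its counts were 13, 10, 20 and 3 in new AML and 28, 23, 20 and 8 in aggressive AML. Replicate 4 was the lowest library in both groups. The means were 1.27 ± 0.776 and 2.40 ± 1.05 CPM (SD, n = 4), and the log2 fold change of 0.90 (SE 0.47, adjusted p = 0.201) was not detectable at this depth and spread. It was 0.59 without new AML replicate 4 and 1.31 without new AML replicate 3, and neither was called.

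Ptger4 (chromosome 15, 5233399 to 5244187) encodes EP4, a receptor that raises cyclic AMP. The new AML libraries measured 4.21, 5.59, 5.35 and 4.46 CPM, from 40 to 48 counts. The aggressive AML libraries measured 2.17, 3.06, 2.20 and 2.50 CPM, from 17 to 26 counts. Every aggressive AML library lay below every new AML library. The means were 4.90 ± 0.671 and 2.48 ± 0.414 CPM (SD, n = 4), and the fitted level was 1.96-fold lower. The log2 fold change was -0.97 with an SE of 0.24 (adjusted p = 0.0123). The call held under all 13 alternatives, with an adjusted p of 0.0451 at most.

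**Figure D2:**
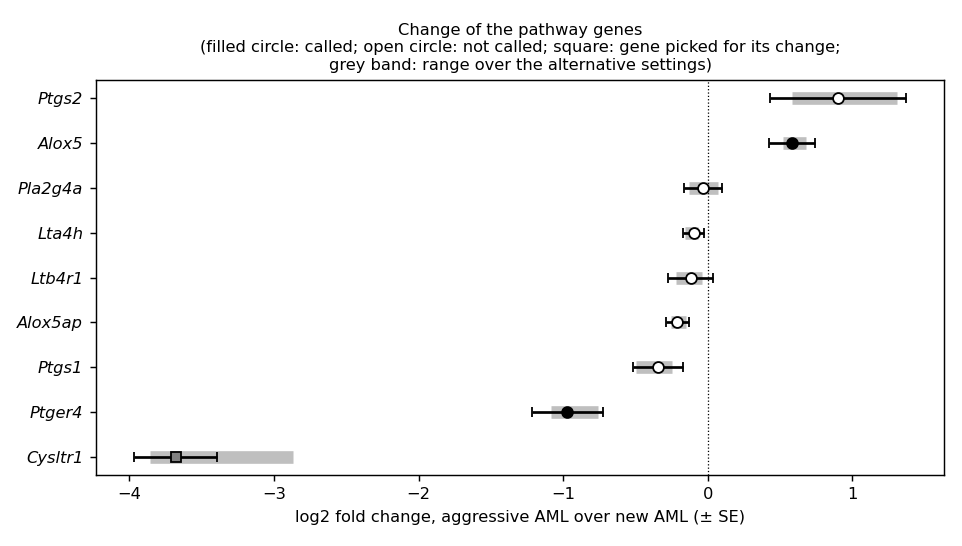
Log2 fold change of the 9 genes, aggressive over new AML, with SE as error bars and the range over the 13 alternative settings as grey bands; filled circles passed the test, open circles did not, and the square is Cysltr1, picked for its change. Alox5 at 0.58 and Ptger4 at -0.97 are the called genes, and the bands of all genes but Pla2g4a stay on 1 side of 0.

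The genes also differed widely in level. On the scale of CPM per kb of the longest transcript, the order of the means in new AML was Alox5ap (186.5), Lta4h (91.0), Pla2g4a (13.0), Ltb4r1 (11.8), Ptgs1 (7.35), Alox5 (3.10), Cysltr1 (2.80), Ptger4 (1.30) and Ptgs2 (0.286). The ranges of Pla2g4a and Ltb4r1 overlapped, as did those of Alox5 and Cysltr1, and the other neighbours in this order were apart. In aggressive AML, Cysltr1 moved from the seventh place to the last, at 0.213, behind Ptger4 (0.659) and Ptgs2 (0.538). The ranges of these last 3 genes overlapped from neighbour to neighbour, as did those of Pla2g4a (12.7) and Ltb4r1 (10.9) and those of Ptgs1 (5.77) and Alox5 (4.64). Alox5ap (161.2) and Lta4h (85.0) stayed the highest. With the mean length of all transcripts in place of the longest, Ptgs1 and Ltb4r1 exchanged places, and so did Ptgs2 and Ptger4 in aggressive AML. The levels themselves depend on this choice, and in new AML those of Alox5ap, Lta4h and Alox5 became 364.1, 257.0 and 6.28.

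**Figure D3:**
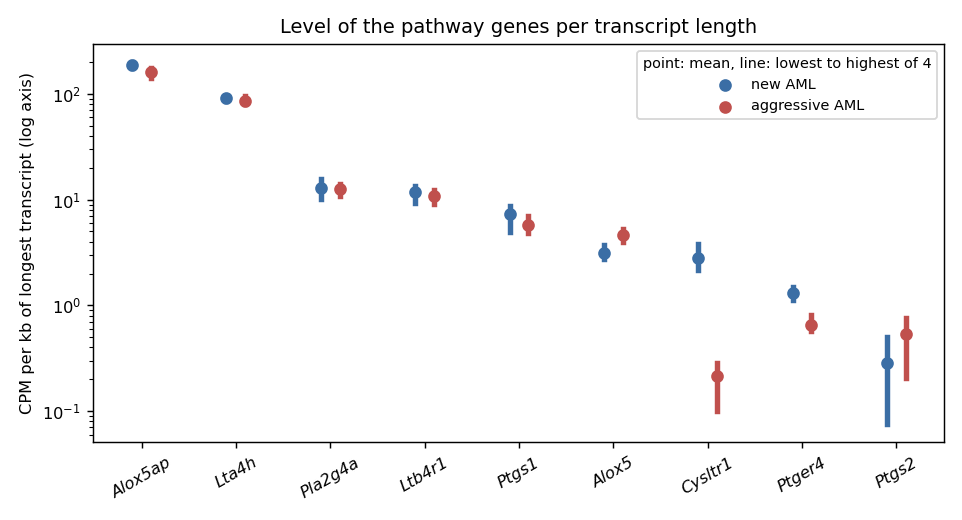
Level of the 9 genes in CPM per kb of the longest transcript (log axis), in new AML (blue) and aggressive AML (red); points are means and lines run from the lowest to the highest of 4 libraries. Alox5ap and Lta4h lead in both groups, and Cysltr1 stands at 2.80 in new AML and 0.213 in aggressive AML.

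The wider pathway was described with 6 lists that exclude the 10 genes. Of 109 listed genes 74 were tested, and 22 of these (29.7%, against 18.4% of all genes tested) were called, 9 higher and 13 lower, with a median log2 fold change of -0.02 beside 0.00044 over all genes tested. Of the 22 calls, 13 held under all 13 alternatives, and every sign was kept. The lists were written with earlier results of these data known.

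Among 19 genes that release or store arachidonate, 2 rose and 3 fell (26.3% called, against 18.4% of all genes tested; median log2 fold change -0.06). Pla2g12a, a secreted phospholipase A2, rose from 4.99 ± 1.70 to 10.7 ± 1.90 CPM, and Acsl1, which activates fatty acids with coenzyme A, rose from 113.7 ± 6.15 to 143.3 ± 12.3 CPM. Lpcat2, an acyltransferase that also makes platelet-activating factor, fell from 3.16 ± 0.502 to 0.765 ± 0.478 CPM (log2 fold change -2.01, SE 0.39, adjusted p = 0.00249). Its aggressive AML libraries held only 4, 11, 2 and 9 counts. Daglb, a diacylglycerol lipase, fell from 31.7 ± 4.53 to 22.5 ± 1.67 CPM. The lysosomal phospholipase Pla2g15 fell from 122.6 ± 8.27 to 81.8 ± 26.3 CPM, but its call was lost in DESeq2, without new AML replicate 1, 2 or 4 and without aggressive AML replicate 2. Of the 14 genes not called, the most abundant were Acsl5 (240.3 and 240.8 CPM in new and aggressive AML), Elovl5 (94.8 and 92.1 CPM) and Plaa (87.3 and 96.4 CPM).

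Among 11 lipoxygenases and genes that export or degrade leukotrienes, 2 were called, both higher (18.2%, against 18.4% of all genes tested, and median 0.20). Abcc1, an exporter of leukotriene C, rose from 76.8 ± 3.41 to 96.5 ± 10.8 CPM (adjusted p = 0.0194), a call that was lost without new AML replicate 2 and without aggressive AML replicate 1 or 2. Cyp4f13, of a cytochrome family that oxidises leukotrienes, rose from 11.4 ± 0.825 to 17.8 ± 1.46 CPM. The most abundant genes not called were Cotl1, whose product binds 5-lipoxygenase (311.8 and 285.8 CPM), Ptgr1 (148.8 and 151.2 CPM) and Cyp4f18 (139.8 and 113.1 CPM). Of the related lipid receptors 2 of 7 were measured and 1 was called (50%, against 18.4% of all genes tested). Ptafr, the receptor of platelet-activating factor, fell from 20.1 ± 6.63 to 11.5 ± 4.31 CPM (log2 fold change -0.80, adjusted p = 0.0410) with overlapping groups, and the call was lost without new AML replicate 2 or 4 and without aggressive AML replicate 1 or 2. Ltb4r2, the second receptor of leukotriene B, measured 2.60 ± 0.820 and 2.46 ± 0.863 CPM (adjusted p = 0.884).

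Among 10 prostanoid synthases and catabolic genes, 2 were called, both higher (20%, against 18.4% of all genes tested, and median 0.11). Hpgd, which inactivates prostaglandins by oxidation, rose from 609.2 ± 36.2 to 804.0 ± 39.0 CPM (log2 fold change 0.40, SE 0.07, adjusted p = 0.00106). Fam213b, a prostaglandin F synthase, rose from 3.12 ± 1.36 to 9.45 ± 0.697 CPM (log2 fold change 1.59, SE 0.27, adjusted p = 0.000928). Both calls held under all 13 alternatives. Ptges3 (135.5 and 114.8 CPM), Abcc4, an exporter of prostaglandins (78.8 and 81.5 CPM), and Ptgr2 (61.1 and 67.1 CPM) were the most abundant genes not called.

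Of the prostanoid receptors other than Ptger4, 4 of 10 were tested and 0 were called by edgeR, against 18.4% of all genes tested. DESeq2 and limma also called 0, and 1 gene had an unadjusted p under 0.05. That gene was Ptger2, which encodes EP2, the other prostaglandin E receptor that raises cyclic AMP. It measured 3.22 ± 1.07 CPM in new AML and 1.60 ± 1.11 CPM in aggressive AML (log2 fold change -1.02, SE 0.41, adjusted p = 0.0972). Ptgir, the prostacyclin receptor (10.6 ± 0.502 and 10.7 ± 5.04 CPM), and Ptger1 (3.09 ± 0.500 and 3.87 ± 1.09 CPM) were not called.

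All 28 listed genes that relay signals from these receptors were measured, and 3 rose while 9 fell (42.9% called, against 18.4% of all genes tested, and median -0.13). Among those that fell were Gna15, a Gq-type subunit, the phospholipases Plcb2 and Plcb3, and the calcium channels Itpr1 and Itpr2. Gna15 fell from 61.0 ± 6.88 to 35.7 ± 6.86 CPM (adjusted p = 0.000889), Plcb3 from 35.9 ± 2.13 to 22.3 ± 4.48 CPM and Itpr2 from 6.22 ± 1.36 to 2.94 ± 1.07 CPM. The log2 fold changes of Plcb2 and Itpr1 were both -0.37. The adenylyl cyclases, which make cyclic AMP, went in both directions. Adcy6 rose from 6.11 ± 2.22 to 16.6 ± 5.29 CPM (log2 fold change 1.43, adjusted p = 0.00125) and Adcy3 by 0.40 on the log2 scale, whereas Adcy7 fell from 251.8 ± 31.8 to 183.9 ± 31.7 CPM. Of the inhibitory subunits, Gnai3 had a log2 fold change of 0.35 and Gnai2 of -0.23. The phosphodiesterase Pde4a (-0.29) and the transcription factor Creb1 (-0.27) fell as well. Several of these calls were lost with 1 library left out, where fewer libraries were fitted. Itpr2 was lost without new AML replicate 4, Adcy7 without new AML replicate 2 or 4, and Pde4a without new AML replicate 1, 2 or 4 or aggressive AML replicate 4. Gnai2 and Adcy3 were called in 3 of 8 fits with 1 library left out, and Creb1 in 1 of 8, without aggressive AML replicate 4. The call of Adcy3 was also lost with a term for the replicate number in the model. Gnas (733.2 and 679.7 CPM), Prkar1a (385.4 and 395.1 CPM) and Prkacb (134.3 and 120.6 CPM) were the most abundant genes not called.

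**Figure D4:**
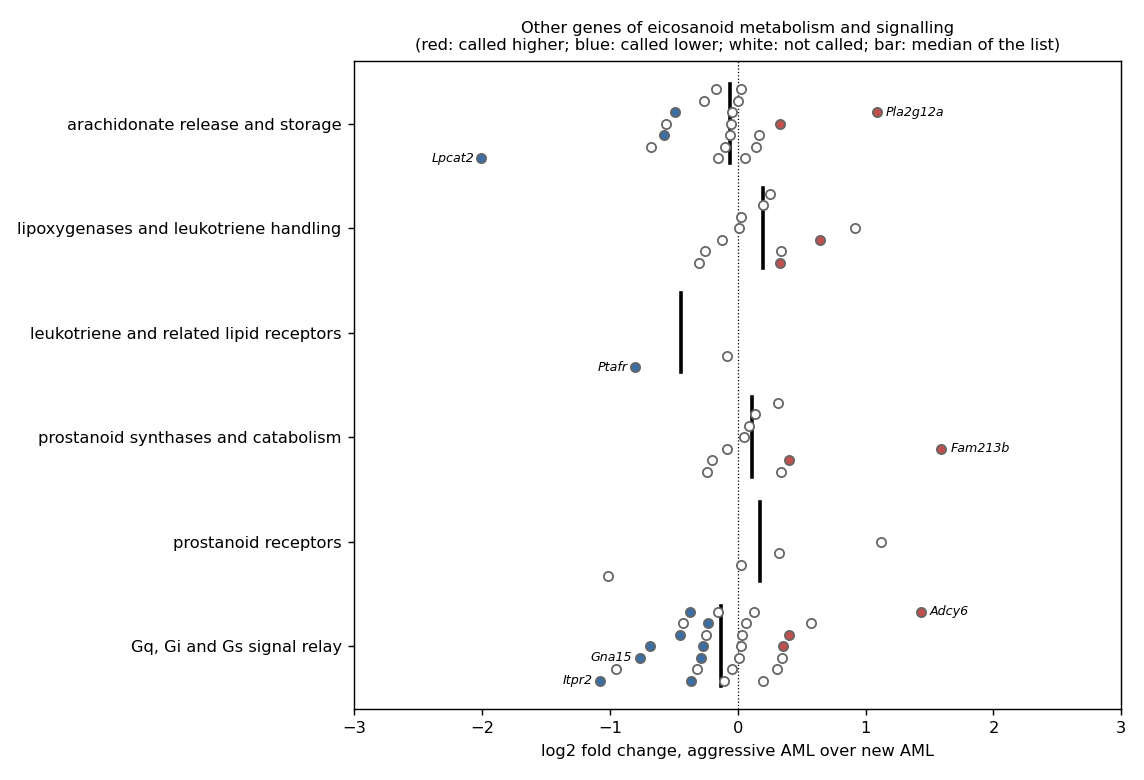
Log2 fold change, aggressive over new AML, of the 74 tested genes in the 6 wider lists; each point is a gene (red called higher, blue called lower, white not called) and the bar is the median of the list. Genes called in both directions lie on either side of 0, from Lpcat2 at -2.01 to Fam213b at 1.59.

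Markers of other cells were examined because leukotriene genes are used by several myeloid cell types. All 11 neutrophil markers were measured and 8 fell (72.7%, against 10.2% of all genes tested), among them Ltf (31.0 ± 5.99 to 3.68 ± 1.49 CPM) and Mmp9 (6.71 ± 2.55 to 0.585 ± 0.419 CPM). Camp, Ngp, S100a8, S100a9, Mmp8 and Retnlg were the others. In the aggressive AML libraries Mmp9 held only 5, 4, 1 and 10 counts and Retnlg 4, 4, 8 and 2. The summed level of all 11 markers was 357.0 to 538.3 CPM in the new AML libraries and 194.0 to 247.4 CPM in the aggressive AML libraries. None of the 11 was at 0 in any library. Of 10 macrophage markers 5 were measured, at 82.9 to 145.6 and 56.0 to 90.8 CPM, and 4 were tested. Adgre1 alone was called, lower (83.1 ± 20.9 to 46.9 ± 7.93 CPM), which is 25% against 18.4% of all genes tested. The 2 of 9 eosinophil markers that were measured, Prg2 and Siglecf, summed to 14.1 to 21.6 and 17.1 to 22.7 CPM. By edgeR 0 of them were called, against 18.4% of all genes tested. DESeq2 and limma also called 0, and 0 had an unadjusted p under 0.05. Of 10 mast cell and basophil markers 5 were measured and tested, at 141.0 to 181.1 and 202.8 to 223.0 CPM. Only Mcpt8 was called, higher (27.9 ± 5.55 to 77.8 ± 7.27 CPM), which is 20% against 18.4% of all genes tested. These 8 neutrophil markers and Adgre1 moved in the same direction as Ptger4 and 13 called genes of the wider lists, Ptafr among them. Cysltr1 was lower too, but it was picked for its fall. Alox5 and 9 genes of the wider lists were called in the opposite direction, and Ltb4r1 was not called. The part of these cell types in the results was not tested. In these bulk samples, fewer cells of a type and less RNA per cell cannot be told apart.

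Markers of the remaining types were sparse. Of 10 erythroid markers 9 were measured and 7 tested, at 28.4 to 101.9 CPM in new AML and 10.6 to 54.2 CPM in aggressive AML. Slc4a1 and Hba-a1 were called lower with overlapping groups (28.6%, against 18.4% of all genes tested). The call of Hba-a1 was lost in DESeq2 (adjusted p = 0.136) and limma (adjusted p = 0.0608). Of 8 megakaryocyte and platelet markers 2 were measured, Itga2b and Gp1ba, and edgeR called 0 of them, against 18.4% of all genes tested. DESeq2 called 1, limma called 0, and 2 had an unadjusted p under 0.05. Of 8 T cell markers only Bcl11b was measured (5.32 ± 1.07 and 12.2 ± 6.63 CPM), and Cd3e, Cd4 and Cd8a were not. Bcl11b was called higher with overlapping groups (100%, against 18.4% of all genes tested). It was not called in DESeq2 (adjusted p = 0.114) or limma (adjusted p = 0.155). Of 7 NK cell markers only Nkg7 was measured (14.9 ± 5.00 and 24.1 ± 4.30 CPM), and Ncr1, Klrb1c and Prf1 were not. Nkg7 was called higher with overlapping groups (100%, against 18.4% of all genes tested). Whether T cells or NK cells were present was not tested. Of 7 B cell markers 3 were measured, and Cd79b, the 1 that was tested, was not called (0%, against 18.4% of all genes tested).

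The surroundings of Cysltr1 were examined because the gene is X-linked and the groups differed in sex chromosome transcripts. RefSeq lists 22 other genes within 500 kb of it, of which 5 were measured. The nearest of these 5, Taf9b, lay 355.4 kb away. The authors had left out genes of low expression, and values of genes closer to Cysltr1 were not seen. Pgk1, a glycolytic enzyme 372.8 kb away, rose from 59.7 ± 10.7 to 81.8 ± 6.08 CPM (log2 fold change 0.45, SE 0.11, adjusted p = 0.0121). The log2 fold changes of Atp7a (-0.23), Tlr13 (-0.26), Taf9b (-0.07) and P2ry10 (-0.20) were not called, with adjusted p from 0.421 to 0.825. Among the 344 other X-linked genes tested, 24 were higher and 29 lower (15.4%, against 18.4% of all genes tested), and the median log2 fold change was 0.00009.

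**Figure D5:**
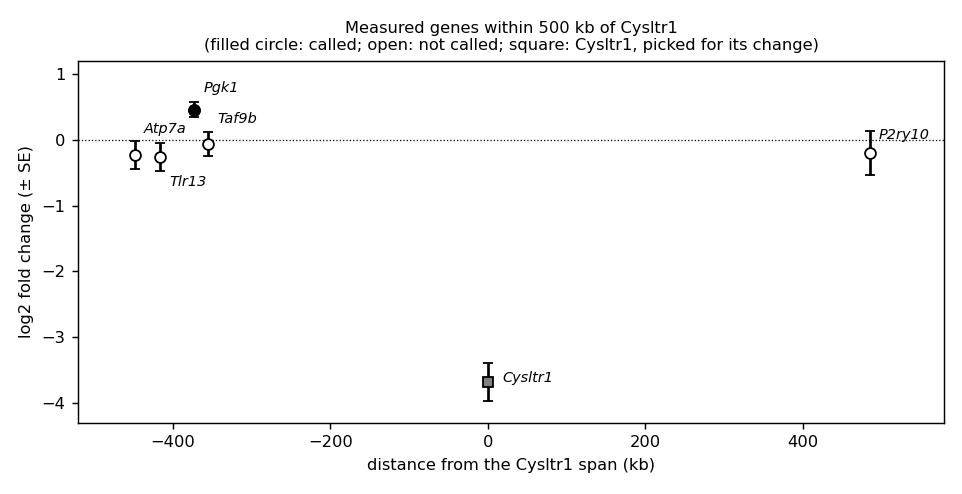
Log2 fold change (± SE) of the 5 measured genes within 500 kb of Cysltr1 against their distance in kb; the filled circle passed the test, open circles did not, and the square is Cysltr1. The neighbours, the nearest of them 355.4 kb away, lie between -0.26 and 0.45. Cysltr1, picked for its change, lies at -3.68.

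Genes whose log2(CPM + 1) values were most like those of Cysltr1 over the 8 libraries were sought among 10304 genes with a mean of at least 5 CPM. The highest coefficients were those of Mefv (Pearson r = 0.994), Nrp1 (0.994), Olfm1 (0.992) and Met (0.991). These 4 genes were lower in aggressive AML, as a gene must be to resemble Cysltr1 over these groups, with log2 fold changes from -2.12 for Nrp1 to -0.71 for Mefv. Within the pathway the coefficients were 0.729 for Alox5ap, 0.626 for Ptgs1, 0.558 for Lta4h, 0.395 for Ltb4r1, 0.180 for Pla2g4a and -0.817 for Alox5. Ptger4 and Ptgs2 had a mean under 5 CPM and were not compared. The 8 points fall into the 2 groups, so that these coefficients are descriptions of the group difference and of the libraries they share.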

How the data were processed

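Polyadenylated RNA of sorted GFP+ leukemia cells was sequenced from both ends by the authors, aligned to the mouse genome mm10 with HISAT2 and counted per gene with Rsubread, and genes of low expression were left out. The gene annotation and strand setting are not given in the sources used here. Although its name refers to CPM, the deposited table holds whole numbers whose totals differ between libraries, so its values were taken as raw counts. Because counts were found, edgeR's quasi-likelihood test was the main test, and limma on log2(CPM + 1) was an alternative. The study used a linear model in limma, and the pseudocount of 1 was chosen here.

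The filter asked for 1 CPM or more in 4 or more of 8 libraries. The 12494 genes that passed (329 rows did not) were tested with edgeR 4.0.16 in R 4.3.3, TMM scaling (factors 0.986 to 1.01), the group as the only term, two-sided p-values and Benjamini-Hochberg adjustment over all genes tested at a threshold of 0.05. The fit was tested on simulated data. The F statistic and the fold change gave the standard error. CPM values carry the TMM factors. Total counts ranged from 7805544 to 9697777. Replicates differed beyond sampling noise in every pair (chi-square per gene 4.07 to 11.1). All columns of the table were assigned by their names, and 0 per-sample columns were left unused.

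Alternatives were size factors by the median of ratios (RLE), no filter, DESeq2 1.42.0, limma 3.58.1, a replicate block, and each library left out. Coordinates and promoters came from RefSeq GRCm38.p6 (97.4% of gene names matched) and transcript lengths from GENCODE vM21 of the same build. The genes, lists and motifs were chosen with earlier results of these data known. Named from each wider list were every called gene and the 3 most abundant others, and likeness to Cysltr1 was ranked by Pearson's r. Any further gene was named after its values were seen, among them the Y-linked genes, the neighbours of Cysltr1 and some markers. Some genes that the rule selects are not reported here.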

Additional observations from a re-analysis of the deposited data

Results flagged for a closer look

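In 94 groups of 4 libraries, formed in each AML group by the 9 pathway genes and the genes named from the wider lists, 5 held a library far from the other 3 of its group, where chance flags about 1 in 20 groups. All 5 lay in aggressive AML. In replicate 1, Lta4h measured 308.7 CPM (260.002 to 267.6 CPM in the others) and Prkacb 126.8 CPM (118.3 to 118.6 CPM). In replicate 3, Ltb4r2 measured 3.76 CPM (2.00 to 2.05 CPM in the others), Gnai2 748.8 CPM (693.2 to 695.3 CPM) and Adcy7 136.8 CPM (196.1 to 205.7 CPM). Of these genes Gnai2 and Adcy7 were called, and both calls held without replicate 3 of aggressive AML.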

How the results depend on the processing

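The number of the 8 tested genes that were called stayed at 2 with RLE size factors, no filter, DESeq2, limma and the replicate block, and ranged from 1 to 3 with 1 library left out. It was 1 without aggressive AML replicate 2, where Alox5 was lost. It was 3 without aggressive AML replicate 3, where Alox5ap was gained. Without new AML replicate 1, Alox5 was lost and Ptgs1 gained. Fewer libraries were fitted in these settings. In the wider lists 22 genes were called, 23 in DESeq2 and 14 to 23 with 1 library left out, where the 14 were found without new AML replicate 2. For Pla2g4a, which was never called, the log2 fold change ranged from -0.13 to 0.068 with 1 library left out and changed sign. For Cysltr1 it was -2.87 in limma on log2(CPM + 1), a scale that shrinks the change of a gene near 1 CPM, and -3.85 to -3.46 with 1 library left out. The count over all genes, 2296, ranged from 1534 to 2538 over all alternatives.

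The labels number the replicates from 1 to 4 in both groups without saying that a number marks a shared mouse or day. Deviations of same-numbered libraries from their group means had correlations of 0.10, -0.04, -0.07 and 0.20, so the numbers were not treated as pairs. With the replicate block, 2367 genes in all, 2 of the 8 genes and 23 genes of the wider lists were called, without Adcy3. With a few counts per library, as for Ptgs2 and for Cysltr1 in aggressive AML, depth limits the precision.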

Other observations

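The identity of the cells was examined with 10 genes known in MLL-AF9 leukemia, all of which were measured, at a summed level of 6672 to 7344 CPM in new AML and 6840 to 8864 CPM in aggressive AML. Of these, 4 rose and 2 fell in aggressive AML (edgeR, adjusted p under 0.05), which is 60% against 18.4% of all genes tested. The call of Elane was lost in DESeq2 (adjusted p = 0.0540). Mef2c, a transcription factor of myeloid leukemia, rose from 318.1 ± 18.3 to 490.4 ± 98.2 CPM (SD, n = 4) and Meis1, a cofactor of Hoxa9, from 100.4 ± 3.63 to 137.7 ± 27.9 CPM. The granule proteases Ctsg and Elane rose from 1407 ± 144.2 to 2004 ± 148.1 CPM and from 802.8 ± 145.8 to 1154 ± 263.2 CPM. Hoxa10 fell from 184.5 ± 12.4 to 122.4 ± 5.61 CPM, and Itgam, the integrin of mature myeloid cells, from 494.5 ± 90.2 to 324.2 ± 20.2 CPM. Hoxa9 was not called (301.0 ± 8.67 and 321.6 ± 25.3 CPM, adjusted p = 0.384).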
